A study of Mus musculus with 42 samples.

Results

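Il18rap and 4 other receptor genes of the interleukin-1 family, Il18r1, Il1rl1, Il1rl2 and Il1r1, lie side by side on mouse chromosome 1, and their RNA was followed in muscle precursor cells with and without the transcription factor Pax7 and in satellite cells. The 5 genes were taken by symbol from the 24466 gene symbols counted by RNA-seq. They were chosen by their counts: Il18rap, the member with the largest drop when doxycycline (Dox) is withdrawn, was selected on the difference between -Dox and +Dox cells, so for these 5 genes that comparison is described here with no test. Over all tested genes, 3.01% were called lower and 4.63% higher in it (adjusted p under 0.05 and at least a 2-fold difference), a background from which nothing is read for the 5.

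The iPax7 cells are myogenic precursors made from 1 mouse embryonic stem cell line that carries a Dox-inducible Pax7, sorted as PDGFαR-positive and Flk-1-negative cells, so they represent a single line with Pax7 supplied by the inducer. RNA was measured in 3 libraries of iPax7 cells kept in 0.75 µg/ml Dox (+Dox), in 2 libraries taken 3 days after Dox was washed out (-Dox), with FGF kept in the medium of both, and in 3 libraries of satellite cells, the resident stem cells of muscle, sorted from Pax7-ZsGreen reporter mice and labelled in vivo. The growth protocol in the labels gives the Dox concentration as 0.75 mg/ml, and the age of the mice is not given in the sources used here. Open chromatin was mapped by ATAC-seq in 10 conditions: +Dox, 12 h, 24 h and 3 days after withdrawal, myotubes made from iPax7 cells in 2% horse serum, satellite cells, and C2C12 cells, an established mouse myoblast line, as myoblasts, as myotubes, and carrying Pax7-Flag or a Flag control. Histone marks from ChIP-seq were read in +Dox, -Dox and the Flag control and Pax7-Flag C2C12 cells, and Pax7 itself in iPax7 cells. The same marks in iPax7 myotubes are among the samples and were not analysed here. The labels do not say whether the RNA libraries of a group came from separate cultures or animals, so the p-values measure the spread between these libraries, which may be technical.

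Receptors of this family sit in the plasma membrane and carry a Toll/interleukin-1 receptor domain inside the cell. A ligand-binding chain binds an interleukin of the family and then pairs with an accessory chain, and the joined intracellular domains recruit the adaptor Myd88 and IRAK kinases, which activate NF-kB and the transcription of cytokine and chemokine genes. In muscle these cytokines are mostly known from the inflammatory phase of injury and repair, and Il18rap is best known from lymphocytes, where it completes the interleukin-18 receptor.

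Between 39010958 and 54674619 counts per library fell on genes, and Pax7 followed the labels, whose normalized counts averaged 12833 in +Dox, 245.1 in -Dox and 5962 in satellite cells. A normalized count is a count scaled to the TMM effective size of its library. The satellite cell libraries stood apart: 23.6% to 30.7% of their reads had been set aside by the counting because they aligned to several places, against 7.11% to 7.60% in the iPax7 libraries. The cell source and the preparation of these libraries cannot be told apart. In bulk RNA, fewer cells of a type and less RNA per cell cannot be told apart either.

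The 5 genes are all transcribed from the + strand and occupy chr1:40281925-40608550 of NCBIM37 in the GENCODE M1 annotation, a stretch of 326.6 kb. In order they are Il1r1 (ENSMUSG00000026072.6, chr1:40281925-40373043), Il1rl2 (ENSMUSG00000070942.3, chr1:40381472-40422316), Il1rl1 (ENSMUSG00000026069.9, chr1:40486415-40522260), Il18r1 (ENSMUSG00000026070.8, chr1:40522397-40557699) and Il18rap (ENSMUSG00000026068.5, chr1:40572207-40608550). The gap between Il1rl1 and Il18r1 is only 0.136 kb, while 64.1 kb separate Il1rl2 from Il1rl1 and 14.5 kb separate Il18r1 from Il18rap. The promoters of the interleukin-18 receptor pair are shown because these neighbours, whose products work as 1 receptor, had opposite RNA levels in +Dox cells, and the Pax7-bound stretch inside Il1r1 is shown because it is the one Pax7 site within the cluster. Each sequence is 300 bases of the + strand of NCBIM37, 5′ to 3′, with TAAT, the core that homeodomains such as that of Pax7 recognise, and its reverse complement ATTA in capitals. The windows are chr1:40571907-40572206 and chr1:40522097-40522396, each ending at the base before the annotated start, and chr1:40339264-40339563, the centre of the Pax7 site.
Il18rap upstream: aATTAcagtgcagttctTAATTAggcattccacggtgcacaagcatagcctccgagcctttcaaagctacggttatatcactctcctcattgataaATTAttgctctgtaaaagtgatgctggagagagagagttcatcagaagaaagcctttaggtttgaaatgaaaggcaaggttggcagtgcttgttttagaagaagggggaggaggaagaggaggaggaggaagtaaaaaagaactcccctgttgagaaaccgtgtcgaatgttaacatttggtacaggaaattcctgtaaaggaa
Il18r1 upstream: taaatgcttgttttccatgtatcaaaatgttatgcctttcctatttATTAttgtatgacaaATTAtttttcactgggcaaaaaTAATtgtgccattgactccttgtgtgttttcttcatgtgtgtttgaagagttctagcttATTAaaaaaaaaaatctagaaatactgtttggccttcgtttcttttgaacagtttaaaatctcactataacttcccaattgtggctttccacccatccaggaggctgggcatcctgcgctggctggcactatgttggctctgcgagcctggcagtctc
Il1r1 intron Pax7 site: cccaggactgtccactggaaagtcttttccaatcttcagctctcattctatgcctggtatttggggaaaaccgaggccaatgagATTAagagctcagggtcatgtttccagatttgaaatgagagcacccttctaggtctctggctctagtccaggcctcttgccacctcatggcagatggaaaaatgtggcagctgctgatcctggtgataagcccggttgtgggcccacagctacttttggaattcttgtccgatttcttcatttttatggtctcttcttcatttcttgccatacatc
The windows upstream of Il18rap and of Il18r1 each held 4 matches to TAAT on either strand, a number reached or passed by 13.3% of the 22232 such windows of protein-coding genes, and the Pax7 site window held 1, where 82.8% of the 2455 Pax7 site windows held 1 or more. Neither TAAT followed by ATTA after a gap of 2 or of 3 bases, the paired form of the core, nor GTCACG, a paired-domain core, was found in the 3 windows on either strand. The pair with a gap of 2 bases is in 1.02% of the Pax7 site windows and 0.508% of the upstream windows, the pair with a gap of 3 in 1.71% and 0.486%, and GTCACG in 9.82% and 8.91%. The matches are descriptions of letters and do not mark binding.

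Il18rap encodes the accessory chain of the interleukin-18 receptor, which does not bind the cytokine alone but is needed for signalling. It had 1961, 2130 and 1277 normalized counts in the 3 +Dox libraries, 34.0 and 2.77 in the 2 -Dox libraries, and 0, 4.02 and 1.32 in the 3 satellite cell libraries. Every +Dox library was far above every other library, and the -Dox and satellite cell libraries overlapped. In RPKM, reads per kilobase of exon scaled to library size, the +Dox level was 5.60 ± 1.41 (SD, n = 3), the -Dox level 0.0576 ± 0.0692 (SD, n = 2) and the satellite cell level 0.00557 ± 0.00642 (SD, n = 3). The summed counts were 98.9 times higher in +Dox than in -Dox (95% counting interval 72.6 to 139), which is the contrast that picked the gene and is given as a description. Of the 40 counts in -Dox, 37 came from 1 library and 3 from the other.

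**Figure D1:**
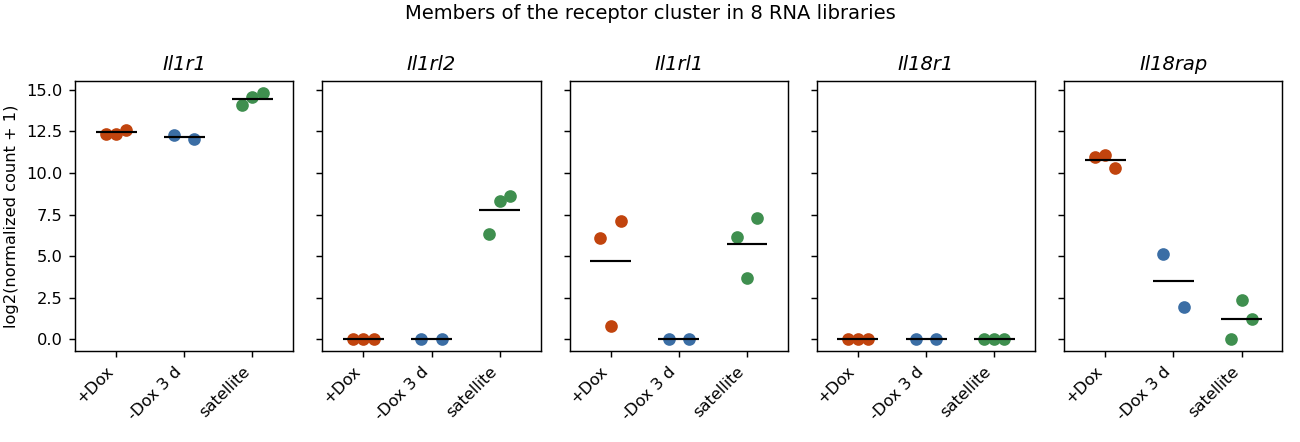
Log2(normalized count + 1) of the 5 receptor genes in each RNA library, with 1 panel per gene, points for libraries and bars for the mean of the log2 values in +Dox (n = 3), -Dox (n = 2) and satellite cells (n = 3). Il18rap is high only in +Dox, Il1rl2 only in satellite cells, Il1r1 is high in every library and highest in satellite cells, Il1rl1 varies between libraries of 1 group, and Il18r1 is at 0 in all 8.

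The +Dox and satellite cell levels of Il18rap are likewise given as a description with no test, because the high +Dox values were used in the choice and the gene passed the filter on low counts through the +Dox libraries alone. All 3 +Dox libraries lay above all 3 satellite cell libraries. The ratio of summed counts, 6889 against 4, was 1032, with a 95% counting interval of 403 to 3787. Over all tested genes, 18.2% were called higher in +Dox than in satellite cells.

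The -Dox cells were near the lower end of what the counts can show for Il18rap. Their 40 counts against 4 in satellite cells gave a ratio of 10.4 (95% counting interval 3.77 to 40.1), a description with no test. This comparison shares its -Dox libraries with the contrast that picked the gene, and the gene passed the filter through the +Dox libraries alone. The ratio rested on -Dox replicate 1: in replicate 2, as in every satellite cell library, the gene had 3 counts or fewer. Without replicate 1 no fold could be given.

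Il18r1 encodes the chain that binds interleukin-18, the partner of Il18rap. No read was counted on it in any of the 8 libraries, which allows up to 3 counts per library, or 0.00983 to 0.0178 RPKM depending on the library. The +Dox level of its partner Il18rap, 5.60 RPKM, lies far above that limit. The 2 chains were thus not detected together in any group at this depth, and no fold can be given for Il18r1. It did not pass the filter on low counts, whereas the other 4 receptors did, Il1rl2 through the satellite cell libraries alone and Il18rap through the +Dox libraries alone.

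Il1r1 encodes the signalling receptor for interleukin-1 alpha and beta and was the most abundant receptor of the cluster per length in all 3 groups. It had 5299, 5311 and 6128 normalized counts in +Dox, 5034 and 4260 in -Dox, and 17348, 24301 and 28477 in satellite cells. The satellite cell libraries were all above the iPax7 libraries, while both -Dox libraries lay just below the +Dox ones. In RPKM the levels were 23.3 ± 1.99 (SD, n = 3), 19.4 ± 2.29 (SD, n = 2) and 97.8 ± 23.5 (SD, n = 3).

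The -Dox to +Dox values of Il1r1, again a description, amount to a ratio of summed counts of 1.19 in favour of +Dox. Il1r1 was lower in +Dox than in satellite cells by a log2 difference of -2.07 (standard error 0.251, adjusted p = 0.000233) and lower in -Dox than in satellite cells by -2.33 (standard error 0.296, adjusted p = 0.000383), both by edgeR. Both differences passed under all 14 other settings. Each shares its iPax7 libraries with the contrast used in the choice. The share of tested genes called lower in +Dox than in satellite cells was 23.9%, and in -Dox than in satellite cells 20.4%.

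Il1rl2 encodes the receptor for interleukin-36, a cytokine group best known from skin. It had no count in any of the 5 iPax7 libraries and 80.3, 319 and 388 normalized counts in the satellite cell libraries, or 2.85 ± 1.75 RPKM (SD, n = 3). All satellite cell libraries were above all iPax7 libraries. Set against the limit of 3 counts per library, the satellite cell level was at least 109-fold higher than in +Dox and at least 94.9-fold higher than in -Dox. No test is given, since a gene that passed the filter through the satellite cell libraries alone had to differ from groups at 0.

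Il1rl1 encodes ST2, the interleukin-33 receptor, which exists as a membrane-bound and a soluble form that counts per gene do not tell apart. It had 67.6, 0.741 and 139 normalized counts in +Dox, 0 in both -Dox libraries, and 69.8, 12.1 and 157 in satellite cells. The +Dox and satellite cell libraries overlapped in part: the lowest of the 6 was a +Dox library with a single count, and the highest was a satellite cell library. In RPKM these are 0.212 ± 0.213 (SD, n = 3) and 0.244 ± 0.224 (SD, n = 3), so the standard deviation was about as large as the mean.

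For Il1rl1 the difference of +Dox from satellite cells was -0.20 on the log2 scale (adjusted p = 0.931, standard error 1.55, edgeR), which leaves room for a several-fold difference in either direction. The sign turned without +Dox replicate 2 and without satellite cell replicate 3. The comparison of satellite cells with -Dox shares its -Dox libraries with the contrast used in the choice, so its p-value is no independent support. Against -Dox, the satellite cell level was at least 28.8-fold higher (adjusted p = 0.0339, edgeR), a call that 9 of 14 other settings kept. It was lost without -Dox replicate 1 (adjusted p = 0.134), -Dox replicate 2 (0.132), satellite cell replicate 3 (0.0639), +Dox replicate 1 (0.0511) and satellite cell replicate 1 (0.0504). The mean +Dox level was at least 25.1-fold above -Dox, which again is the contrast used in the choice and is only described. That bound does not hold for +Dox replicate 2, whose single count lay under the limit of 3 counts per library.

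The order of the receptors per length differed between the groups. In +Dox it ran from Il1r1 through Il18rap to Il1rl1, with Il1rl2 and Il18r1 undetected. In -Dox only Il1r1 and a trace of Il18rap were counted. In satellite cells it ran from Il1r1 through Il1rl2 and Il1rl1 to Il18rap, and no neighbours in these orders overlapped in their libraries: the lowest Il1rl2 library, at 0.871 RPKM, was above the highest Il1rl1 library, at 0.481 RPKM. Of the 4 receptors tested, 3 (Il1r1, Il1rl2 and Il18rap) were called in +Dox against satellite cells, where 42.1% of all tested genes were called, and 4 in -Dox against satellite cells, where 37.6% were. These counts are no evidence about the cluster. Il1rl2 passed the filter through the satellite cell libraries alone and so had to differ from both iPax7 groups. Il18rap passed it through the +Dox libraries alone, so it had to differ in +Dox against satellite cells but not in -Dox against them. It was also chosen on its +Dox and -Dox levels.

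**Figure D2:**
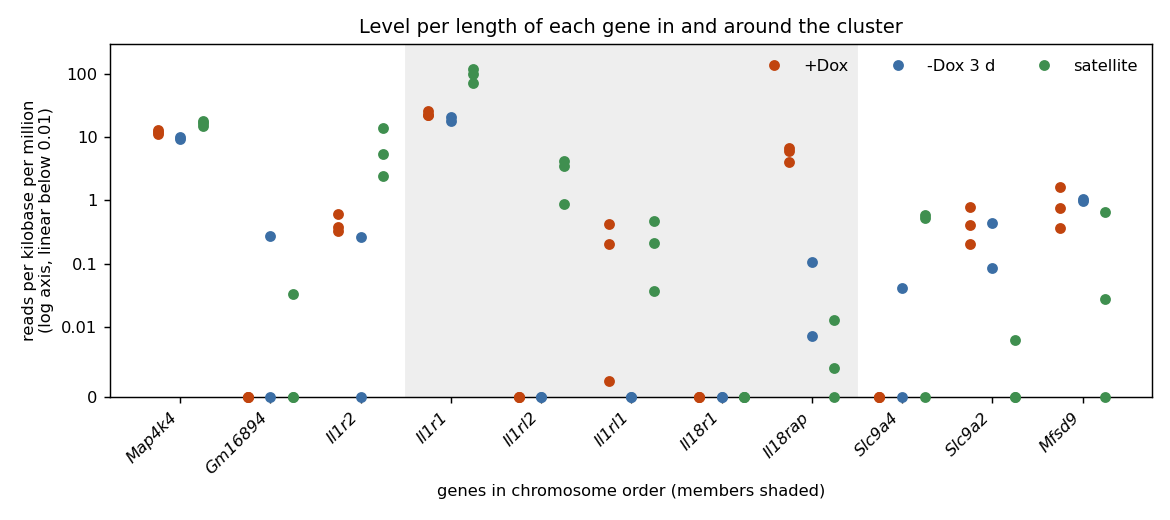
RPKM of 11 genes in chromosome order, from Map4k4 to Mfsd9, in each RNA library on an axis that is linear near 0 and logarithmic above, with the 5 receptor genes shaded. Il18rap is at 5.60 RPKM on average in +Dox beside Il18r1 at 0, and Il1r1 is the highest of the receptors in every group.

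Markers of other cell types were also higher in the satellite cell libraries. Summed over the 9 mast cell markers, a cell type known for Il1rl1, the normalized counts were 2475, 1393 and 2267 in the satellite cell libraries 1, 2 and 3, against 11.1 to 67.4 in +Dox and 0 to 11.9 in -Dox. The 8 leukocyte markers summed to 2229 to 13506 in satellite cells, all 8 of them reaching at least 100 on average, and to 104 to 574 in iPax7 cells. There 4 of the 8 were at 0 in all +Dox libraries and 5 in both -Dox libraries, Ptprc among them. In +Dox 1 marker and in -Dox 2 reached at least 100 on average. The 9 endothelial markers, genes of a cell type known to carry Il1r1, summed to 19272 to 28590 in satellite cells against 4.595 to 168 in iPax7 cells. There 3 of the 9 were at 0 in all +Dox libraries and 4 in both -Dox libraries, Cdh5 among them. The 8 fibroblast and fibro-adipogenic markers summed to 61944 to 104766 in satellite cells, 5712 to 13314 in +Dox and 4214 to 6050 in -Dox. The 11 macrophage and neutrophil markers summed to 4681 to 25421 in satellite cells and 244 to 516 in iPax7 cells. The part of these cells in the satellite cell levels of Il1r1, Il1rl2 and Il1rl1 was not tested. The 10 myogenic markers were high throughout, at 310002 to 450044 in satellite cells and 151195 to 224943 in iPax7 cells.

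Lymphocytes are the cells best known for Il18rap. Of 13 markers of T, NK and innate lymphoid cells, 11 were at 0 in all +Dox libraries and 10 in both -Dox libraries, among them Cd3e, Cd3d and Nkg7. Gata3, which other cells express too, carried most of the sum of 690 to 1018 in +Dox. The sum was 796 to 803 in -Dox and 357 to 1411 in satellite cells. The part of lymphocytes in the Il18rap levels was not tested.

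The 5 genes whose profiles over the 8 libraries were most like that of Il18rap were found among the other 14835 tested genes by the root mean square difference between centred log2(normalized count + 1) values. They were Nox3 (0.772), an NADPH oxidase known from the inner ear, Gsta1 (0.864), a glutathione transferase, Ahrr (0.893), the repressor of the aryl hydrocarbon receptor, Ndst4 (1.34), an enzyme of heparan sulfate synthesis, and Rnf43 (1.37), a ubiquitin ligase that acts on Wnt receptors. All 5 had their normalized counts almost entirely in +Dox: Ahrr had 768 ± 292 (SD, n = 3) in +Dox, 43.2 on average in -Dox and 0.886 in satellite cells, and Nox3 had 358 ± 51.3 (SD, n = 3), 5.97 and 0. Gsta1, Ndst4 and Rnf43 averaged 383, 130 and 282 in +Dox, at most 2.76 in -Dox and 0 in satellite cells. The likeness was found on the same counts that picked Il18rap, so it is a description.

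Among the other receptors of the family, Il1rap is the accessory chain shared by Il1r1, Il1rl1 and Il1rl2. It had 309, 158 and 65.6 normalized counts in +Dox, 22.1 and 234 in -Dox, and 861, 1076 and 1221 in satellite cells. The iPax7 groups overlapped and lay below all satellite cell libraries, with a log2 difference from satellite cells of -2.57 in +Dox (adjusted p = 0.0322) and -3.04 in -Dox (adjusted p = 0.0385) by edgeR. Il1r2, the decoy receptor that binds interleukin-1 without signalling, lies upstream of the cluster and had 21.0, 38.5 and 23.7 normalized counts in +Dox, 16.5 and 0 in -Dox, and 890, 154 and 340 in satellite cells. It was likewise lower than in satellite cells, by -4.05 in +Dox (adjusted p = 0.0233) and -5.78 in -Dox (adjusted p = 0.0186). Withdrawal of Dox gave Il1rap a log2 difference of -0.47 (adjusted p = 0.864) and Il1r2 one of -1.73 (adjusted p = 0.524).

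Of the ligands, Il18, which signals through the Il18r1 and Il18rap pair, was present in every group, with 73.6, 214 and 164 normalized counts in +Dox, 272 and 191 in -Dox, and 380, 322 and 431 in satellite cells. Its iPax7 groups overlapped (log2 difference 0.62 after withdrawal, adjusted p = 0.657, edgeR). Il33, the alarmin that binds Il1rl1, had 327, 344 and 251 normalized counts in +Dox, 0 and 79.4 in -Dox, and 2247, 1824 and 2137 in satellite cells. The 3 groups did not overlap for Il33, yet the withdrawal difference of -2.95 did not pass in edgeR (adjusted p = 0.179), and DESeq2 gave an adjusted p of 0.0336; without -Dox replicate 2, the one with counts, edgeR's was 0.00102. Satellite cells were above both (-2.75 in +Dox, adjusted p = 0.0435, and -5.70 in -Dox, adjusted p = 0.00901). Il1b and the receptor antagonist Il1rn, typical products of myeloid cells, were at 0 in all iPax7 libraries, whereas the satellite cell libraries held 1020, 617 and 104 normalized counts of Il1b and 453, 275 and 0 of Il1rn.

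Myd88, the adaptor shared by these receptors, had 762, 729 and 752 normalized counts in +Dox, 329 and 389 in -Dox, and 11830, 6401 and 9371 in satellite cells. The groups did not overlap, and the difference of +Dox from satellite cells was -3.62 (adjusted p = 3.36e-05), while that of -Dox from +Dox was -1.06 (adjusted p = 0.0763, edgeR), under 0.05 in 4 of 14 other settings. From the lists of 76 pathway genes, 66 were tested, and 4 of them were called in -Dox against +Dox, where 7.64% of all tested genes were called. The pathway genes had a median log2 difference of -0.02 against -0.0049 over all tested genes, and 0 for both with genes at 0 set at their bound. Single lists differed: the median was -0.89 for the 12 NF-kB subunits and inhibitors and -2.26 for the 4 other receptors. For adaptors, kinases and ubiquitin ligases it was 0.08, and for the remaining lists 0. The list medians were not tested. By list, 0 of 5 ligands and soluble antagonists, 0 of 4 other receptors, 0 of 22 adaptors, kinases and ubiquitin ligases, and 0 of 12 NF-kB subunits and inhibitors were called by edgeR, with 1, 1, 2 and 3 of them at an unadjusted p under 0.05 and 1, 0, 2 and 1 called by DESeq2. The other calls were 1 of 6 inflammasome genes and 3 of 17 cytokine and chemokine targets.

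The chemokine Ccl2, which attracts monocytes and is a familiar NF-kB target, rose after withdrawal. It had 56.3, 53.3 and 87.4 normalized counts in +Dox, 946 and 1152 in -Dox, and 13814, 8644 and 8665 in satellite cells, with a log2 difference of 4.00 (standard error 0.353, adjusted p = 0.000194, edgeR) that passed in all 14 other settings. Cxcl5, a neutrophil attractant, had 0, 0.741 and 36.4 in +Dox and 361 and 611 in -Dox (log2 difference 5.32, standard error 1.38, adjusted p = 0.0476), and Ccl7, a monocyte attractant, had 3.76, 0 and 19.1 against 69.8 and 199 (4.19, standard error 1.01, adjusted p = 0.0357). Both groups of libraries were apart for each chemokine, but the Cxcl5 call passed in 6 of 14 other settings and the Ccl7 call in 7. Gsdmd, the pore protein through which mature cytokines of the family leave the cell, fell, from 636, 416 and 453 to 93.7 and 188 (log2 difference -1.83, standard error 0.481, adjusted p = 0.0495), and passed in 4 of 14 other settings.

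Against satellite cells the pathway lists were mostly lower in iPax7 cells. The medians of all lists together were the same with genes at 0 set at their bound. In +Dox, 46 of 66 were called lower and 2 higher, where 23.9% and 18.2% of all tested genes were, with a median log2 difference of -2.67 against -0.17 over all tested genes. In -Dox, 42 were lower and 3 higher, where 20.4% and 17.2% of all tested genes were, with a median of -3.34 against -0.23. Of the 66, 10 were at 0 throughout a group in the +Dox comparison and 14 in the -Dox one. Such genes passed the filter on low counts through other libraries alone, so their part in the calls is no evidence. All 12 NF-kB subunits and inhibitors were lower in both, with medians of -3.27 and -4.08, and 14 of 17 cytokine and chemokine targets were lower in +Dox. The leukocyte and myeloid marker sums given above differed between the same libraries, and their part in these counts was not tested.

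**Figure D3:**
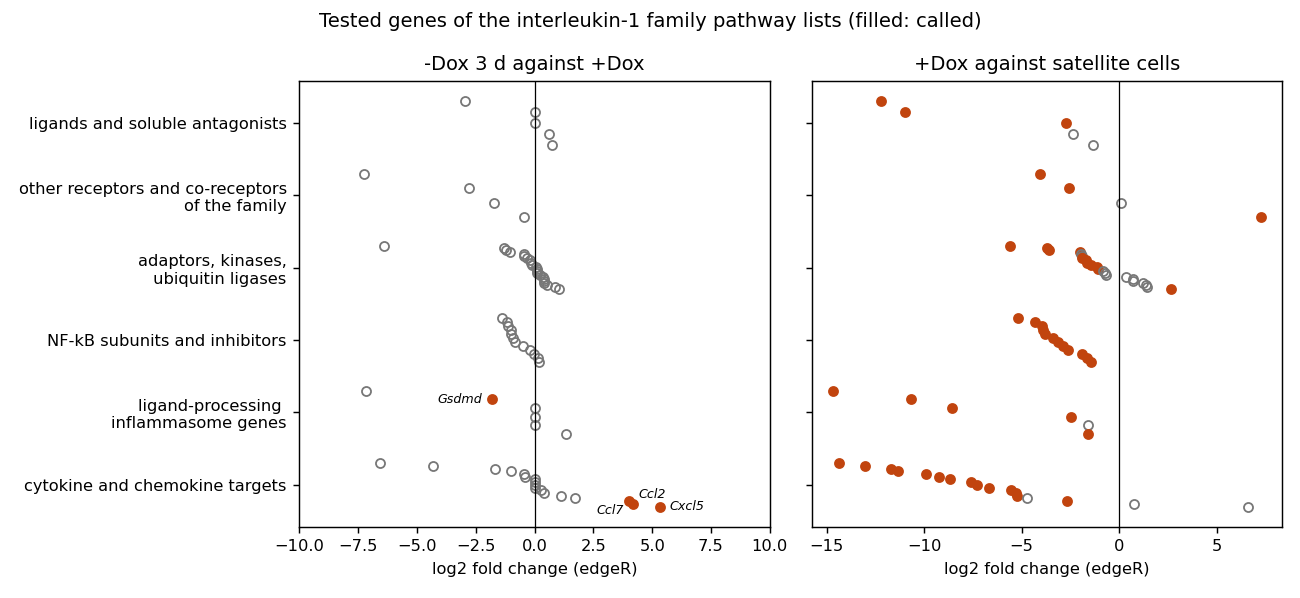
Log2 difference of each tested pathway gene, by list, in -Dox against +Dox and in +Dox against satellite cells, with filled points for called genes (edgeR adjusted p under 0.05 and at least 2-fold). In -Dox against +Dox 4 points of 66 are filled, and in +Dox against satellite cells 48 are, 46 of them below 0.

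For the genes on either side of the cluster, differences after withdrawal were small beside their spread or rested on few reads. In -Dox against +Dox, 0 of the 5 tested neighbours within 250 kb were called by edgeR, 0 had an unadjusted p under 0.05 and 0 were called by DESeq2. Map4k4, a kinase of stress signalling, had a log2 difference of -0.33 (adjusted p = 0.506), and Slc9a2, a sodium/proton exchanger beyond Il18rap, had 33.8, 128 and 67.4 normalized counts in +Dox and 73.5 and 13.8 in -Dox (-0.81, adjusted p = 0.845). Slc9a2 was near 0 in satellite cells, at 0, 1.34 and 0, below every iPax7 library. No test is given for that difference, since the gene passed the filter through the iPax7 libraries alone. Slc9a4, another exchanger and the nearest gene past Il18rap, had 7.35 normalized counts in -Dox replicate 1, 0 in the other iPax7 libraries, and 0, 107 and 96.3 in satellite cells. Mfsd9, a transporter-like gene, had a log2 difference of 0.17 (adjusted p = 1). The noncoding Gm16894, which overlaps Il1r2 on the opposite strand, had 11.0 normalized counts in -Dox replicate 1 and was not tested, and since no source used here says whether the counting used strand, its reads and those of Il1r2 cannot be told apart.

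Open chromatin at the receptor starts was read from 1 merged peak list per condition, so these values have no replicate error and no test. At the Il18rap start, a peak within 1 kb had a fold enrichment of 7.40 in +Dox, 4.91 at 12 h, 4.07 at 24 h and 5.83 at 3 days after withdrawal, so the lists still held a peak there when almost no Il18rap RNA was counted. A peak was also listed in Pax7-Flag C2C12 cells, at 6.79, and none was listed in Flag control C2C12 cells, C2C12 myoblasts, either kind of myotube or satellite cells. Among 22235 protein-coding genes, 63.2% had a peak at a start in +Dox, 65.6% at 3 days, 56.8% in Pax7-Flag cells, 55.8% in the Flag control and 58.6% in satellite cells. The share was 45.1% in C2C12 myoblasts, 54.2% in C2C12 myotubes and 61.8% in iPax7 myotubes. The lists held from 42700 peaks in C2C12 myoblasts to 172103 at 3 days, a difference that was not adjusted for.

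Il18r1, with no RNA, had no peak at any of its 3 annotated starts in any of the 10 lists. Il1rl2 had one only in satellite cells, at 5.47, the group where its RNA was counted. Il1rl1 has 5 annotated starts. The first had no peak in any list, and at the second, 7.02 kb further in, peaks of 8.61 in +Dox and 7.65 in Pax7-Flag C2C12 cells were listed and none in the other 8 conditions. At its other starts, 10.06 to 11.06 kb in, the one peak listed was of 3.92 in iPax7 myotubes. Il1r1 had a peak at its first start in every list, and this was higher at each later time: 6.03 in +Dox, 12.8 at 12 h, 21.1 at 24 h and 23.4 at 3 days, with 27.5 in satellite cells. At its second start, 41.5 kb in, the same 4 lists gave 12.1, 8.64, 12.3 and 10.2.

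**Figure D4:**
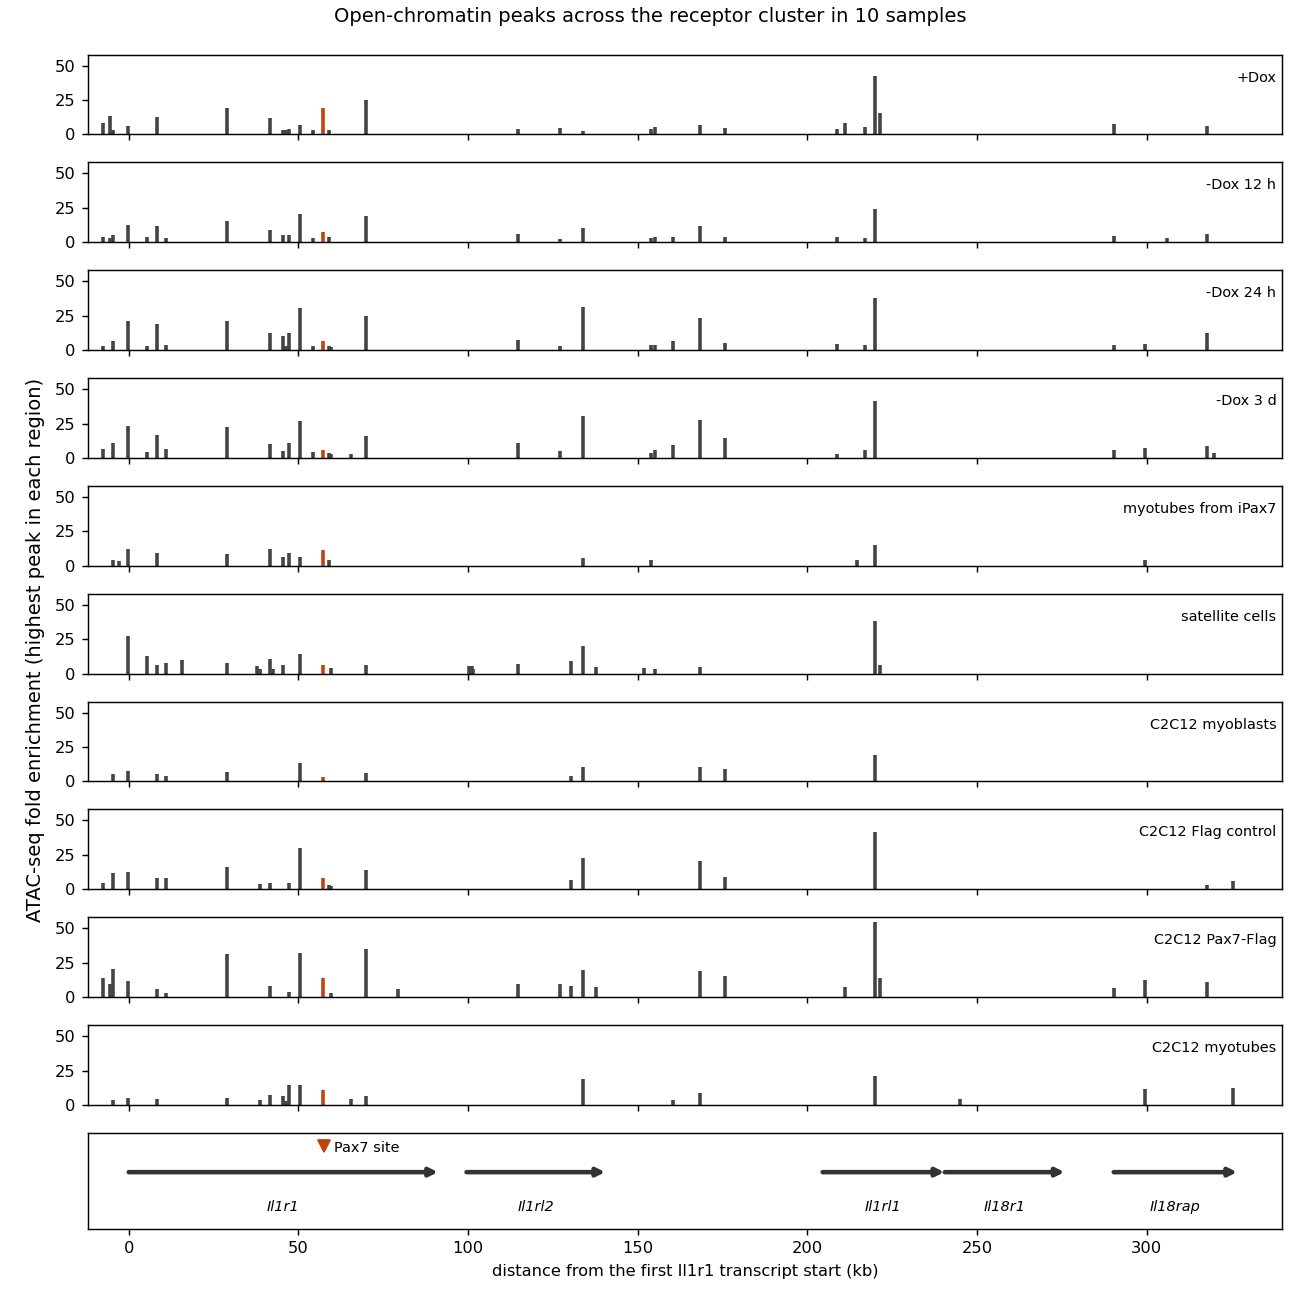
ATAC-seq peaks across the receptor cluster in 10 conditions, with the distance from the first start of Il1r1 in kb on the horizontal axis, the height of each bar as MACS2 fold enrichment, the genes drawn to scale and the Pax7 site in orange. Il18r1 has no peak at its starts, whereas an intron of Il1rl1 holds the strongest peak of the cluster in all 10 conditions.

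Most open regions of the cluster were listed both with Dox and without. Merging the peaks of the 10 lists gave 53 regions, of which 29 held a peak in +Dox and 32 at 3 days, with 25 in both. Of the 31 +Dox peaks, 27 (87.1%) overlapped a peak at 3 days, against 78.6% of the 135564 +Dox peaks on all chromosomes, and their median ratio of fold enrichment was 1.19 against 1.38. In satellite cells 14 (45.2%) were matched, against 44.9% on all chromosomes, and in Pax7-Flag C2C12 cells 22 (71.0%) against 55.4%, with 17 (54.8%) against 45.96% in the Flag control. The strongest region, in an intron of Il1rl1, stood at 42.7 in +Dox and 41.6 at 3 days and at 41.3 and 54.3 in Flag control and Pax7-Flag cells.

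Some regions differed more. A region in an Il1rl2 intron, 133.9 kb from the Il1r1 start, went from 2.58 in +Dox through 10.7 and 31.3 to 30.4 at 3 days. In the other direction, a region 5.53 kb before the Il1r1 start had 13.6 in +Dox, 3.15 at 12 h and no peak at 24 h or 3 days, and among the C2C12 lists it was present in Pax7-Flag cells alone, at 9.53. A region in an exon of Il1rl1 had 15.9 in +Dox, 14.2 in Pax7-Flag cells and 6.64 in satellite cells and no peak in the other 7 lists.

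Pax7 sites were taken from the list of 2455, which by its construction keeps sites found in at least 2 +Dox samples and drops any found without Dox, so their absence in -Dox cells is no result. None lay within 1 kb of a start of the 5 receptors, as was the case for all but 1.56% of protein-coding genes. One site lay within the cluster, at chr1:40339013-40339815 (803 bp) in an intron of Il1r1, 57.5 kb from its first start, 15.98 kb beyond its second start and 232.8 kb before the Il18rap start. A further site lay outside, at chr1:40090648-40091256 (609 bp), 50.7 kb upstream of Il1r2.

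Accessibility at the site in the Il1r1 intron was lower in each list after withdrawal. Its fold enrichment was 18.9 in +Dox, 7.24 at 12 h, 6.91 at 24 h and 5.55 at 3 days, and 14.0 in Pax7-Flag against 8.45 in Flag control C2C12 cells, 6.44 in satellite cells and 11.5 in iPax7 myotubes. The ratio to +Dox was 0.382, 0.365 and 0.293 at the 3 times, where the median over the 2341 Pax7 sites with a +Dox peak was 0.195, 0.219 and 0.282. Of those sites, 67.9% had a lower ratio at 12 h, 59.9% at 24 h and 50.9% at 3 days, so the drop at this site was smaller than at most Pax7 sites at 12 h and near the middle of them at 3 days. A peak was still listed at 3 days at 68.0% of all Pax7 sites and in satellite cells at 53.0%, and the site in Il1r1 had one in both.

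**Figure D5:**
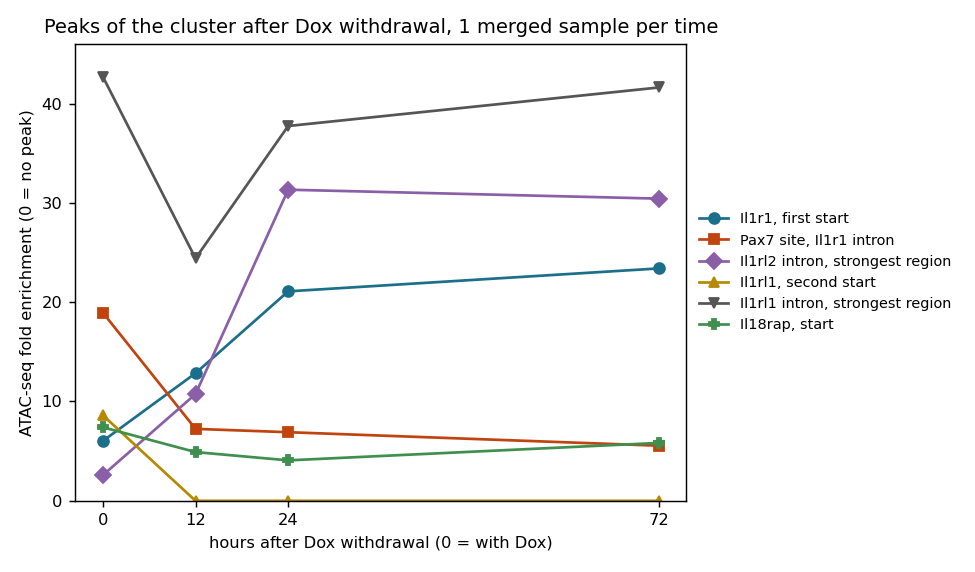
MACS2 fold enrichment at 6 places of the cluster in +Dox (0 h) and 12, 24 and 72 h after withdrawal, 1 line per place and 1 merged list per time. The Pax7 site goes from 18.9 to 5.55 and the first start of Il1r1 from 6.03 to 23.4. The Il18rap start goes from 7.40 to 4.07 at 24 h and 5.83 at 72 h.

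Histone marks at the starts were read as presence of a region within 1 kb in 1 merged list per condition. Il18rap carried H3K27Ac and H3K4me3, marks of active promoters, and H3K4me1 in all 4 conditions, -Dox cells included, and carried no region of the repressive mark H3K27me3. Il1r1 had the same marks. H3K27Ac was at 48%, 45.2%, 53.7% and 54.8% of protein-coding genes in +Dox, -Dox, Flag control and Pax7-Flag cells. In the same order H3K4me3 was at 60.4%, 66%, 45.2% and 38%, and H3K4me1 at 61.6%, 64.8%, 49.8% and 63.6%. Near the Il18rap start H3K27Ac had 3 regions in +Dox and 1 in -Dox. Il1rl2 carried H3K27me3 in +Dox and -Dox, as 21.8% and 19.9% of protein-coding genes did, together with H3K4me1 in both and H3K4me3 in -Dox. Il18r1 had no region of any mark at its starts in iPax7 cells, though H3K27me3 covered 7.29% of its body in +Dox and 0.819% in -Dox, and it had regions of H3K4me1 in Pax7-Flag C2C12 cells. Il1rl1 had H3K4me1 in +Dox, H3K4me3 in -Dox, and H3K27Ac and H3K4me1 in both kinds of C2C12 cells.

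Along the body of Il18rap the marked share was lower without Dox: regions of H3K27Ac covered 3.31% of the gene in +Dox and 0.748% in -Dox, those of H3K4me1 5.42% and 2.95%, and those of H3K4me3 1.79% and 0.932%. The lists as a whole also differed in extent, H3K27Ac covering 73.1 Mb in +Dox and 49.2 Mb in -Dox, H3K4me1 128 and 155 Mb, and H3K4me3 63.6 and 155 Mb. In C2C12 cells Il18rap was covered by H3K27Ac over 8.65% in the Flag control and 22.1% with Pax7-Flag. Those 2 lists as a whole covered 91.2 and 122 Mb. On Il1r1, H3K27Ac went from 25.2% to 15.2% and H3K4me3 from 14.0% to 34.3% after withdrawal. The Pax7 site in Il1r1 overlapped regions of H3K27Ac, H3K4me1 and H3K4me3 in both +Dox and -Dox and no H3K27me3, and in C2C12 cells it had H3K4me3 with Pax7-Flag and not in the Flag control.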

How the data were processed

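RNA was analysed from 8 libraries in 3 groups, taken from the labels, with replicate numbers from the deposited files. Per gene symbol, unnormalized read counts in HTSeq's form were deposited by the authors. The submitters' processing notes name TopHat2 2.0, Trimmomatic 0.32, HTSeq 0.6, Bowtie2 2.2 and 2.2.6, Picard, MACS2 2.0.10, edgeR and mm9. For ATAC-seq the authors merged replicates and deposited MACS2 peaks with a fold enrichment (a ratio) and a −log10 q value. ChIP-seq regions, called by the authors with Qeseq on merged replicates, were used for their positions.

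Entries naming no gene (9.19% to 32.4% of reads) were left out. edgeR 4.0.16 (R 4.3.3) was fitted to all 8 libraries with TMM, filterByExpr, 1 mean per group, the quasi-likelihood test and Benjamini-Hochberg adjustment over 14836 genes. A call is an adjusted p under 0.05 with at least a 2-fold difference. Standard errors are the log2 fold change over the square root of F. RPKM used GENCODE M1 exon lengths. Folds against a group at 0 used 3 counts per library. Counting intervals are exact, at 95%, and cover counting error only. Every replicate pair differed by more than sampling noise (variance 49.3 to 444 times Poisson). A promoter is 1 kb around an annotated start. Chromosome lengths of the reference were checked against the files. The model was run on simulated data with large changes in well-counted genes and less spread than in these libraries. That run does not show how it performs at low counts or for small differences. Alternatives were DESeq2 1.42.0, its size factors, other filters, fits of only the 2 groups compared, a replicate block, each library left out, 5 kb windows and stricter peak thresholds. Figures were drawn in Python 3.11.15.

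The genes named are the 5 receptors, neighbours within 250 kb, pathway genes called after withdrawal, 7 fixed pathway genes (Il1rap, Il1r2, Il18, Il33, Il1b, Il1rn and Myd88) and the 5 genes most like Il18rap. The members, lists and tests were chosen with earlier results of these data known.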

Additional observations from a re-analysis of the deposited data

How the results depend on the processing

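The Il1r1 calls against satellite cells held in all 14 alternatives. In +Dox against satellite cells 3 receptors were called in each, but those of Il1rl2 and Il18rap were fixed by the filter and the choice of genes. In -Dox against satellite cells 4 receptors were called, 3 with the replicate block and in a fit of only the 2 groups, and 2 to 4 when a +Dox or satellite cell library was left out. There the Il1rl2 call was again fixed by the filter, and those of Il18rap and Il1rl1 used -Dox counts that entered the choice. The pathway genes called after Dox withdrawal numbered 4, 8 with DESeq2, 2 with a replicate block and 1 to 5 when a library was left out. Of 288 alternatives for single genes, 240 kept direction and side of the threshold, 36 lost and 6 gained significance, and 6 reversed. The 240 include 14 for Il18rap in +Dox and 14 for Il1rl2 in each iPax7 group, all against satellite cells. Their outcomes were fixed by the filter and the choice of genes, so they add nothing to the count. A further 12 of the 288 are for Il18rap and 14 for Il1rl1 in -Dox against satellite cells, whose -Dox counts entered the choice. The reversals were Il1rl1 in +Dox against satellite cells (-1.22 to 0.75 when a library was left out, above 0 at 0.43 without +Dox replicate 2 and at 0.75 without satellite cell replicate 3), Il1rap after withdrawal (-2.98 to 0.40, above 0 at 0.20 without +Dox replicate 1 and at 0.40 without -Dox replicate 1) and Mfsd9 after withdrawal (-0.53 with the block, and -0.21 to 0.89 when a library was left out, below 0 without +Dox replicate 3). Their cause was not tested. Over all genes, 1134 were called after withdrawal, 2010 with DESeq2, 1950 in a fit of only the 2 groups, 741 with the block, and 508 and 488 without -Dox replicates 1 and 2, 674 and 630 without +Dox replicates 1 and 2. In -Dox against satellite cells 5579 were called, and 3204 and 3382 without -Dox replicates 1 and 2. For libraries of equal replicate number, r of deviations from the group means lay between -0.0398 and 0.0272 over 7 pairs. With 2 or 3 libraries per group these values depend on each other and cannot show that the libraries were unpaired. With 250 kb on either side in place of 100 kb, 2 Pax7 sites were found in place of 1. With 5 kb windows, receptor starts with an ATAC peak rose from 19 to 27 of 50 pairs of gene and list, and those with a histone region from 36 to 43 of 80. The 2 libraries of -Dox, counts near 0 for Il18rap outside +Dox, and 1 merged list per chromatin condition limit what can be shown.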
